A study of Arabidopsis thaliana with 24 samples.

Results

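The comparison of 0.2 with 2 mM KNO3 in shoots of wild-type plants at 16 days covered 6 of the 24 libraries of an Arabidopsis RNAseq experiment, chosen by their labels alone. The 3 plants of low nitrate supply had grown hydroponically with 0.2 mM KNO3 plus 1.8 mM KCl, and the 3 plants of normal supply with 2 mM KNO3. Both groups were Col-0, grown in the same basal nutrients, light and temperature. The chloride salt replaced the missing potassium, so nitrate and chloride differed together and their effects cannot be told apart. The other groups of the experiment were wild type at 25 days and nrt1.13, a single T-DNA insertion line in NRT1.13, at both ages and with both supplies. A library held the polyadenylated RNA of 1 shoot. Some labels date the plants from germination and others from sowing.

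Nitrate is both the main nitrogen source of most plants and a signal. In Arabidopsis, the transporter NRT1.1 (CHL1) senses it at the plasma membrane and the transcription factor NLP7 carries the signal in the nucleus. Together they switch on transporters, the enzymes that reduce nitrate and assimilate ammonium, and secondary regulators such as the LBD37 to LBD39 repressors and the scaffold protein BT2. Nitrogen shortage is also known to bring anthocyanin pigments, early leaf senescence and changes in flowering time. The comparison asks which of these gene groups differed in the shoots of young plants that had grown on little nitrate rather than been moved to it.

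Reads behind the deposited values numbered 31135690 to 38584758 per library in the plants on 0.2 mM (median 35247076) and 34797649 to 46155689 in the plants on 2 mM (median 35298177). A CPM of 2 (CPM is the depth-scaled read count that the authors deposited) stood for 64.1 to 90.8 reads. Summed CPM of 4 leaf mesophyll markers lay between 36500 and 38000 on 0.2 mM and between 40200 and 41900 on 2 mM. Of the 4, 0 passed the test in the main limma fit (1 at an unadjusted P of 0.05). In edgeR, in limma without trend, with median-ratio scaling and with CPM over nuclear genes, 1 passed and was lower on 0.2 mM. Root markers summed to 0.767 to 1.28 CPM on 0.2 mM and 0.749 to 0.977 CPM on 2 mM over 4 genes, 1 of them at 0 in all 6 plants. Flower markers summed to 2.88 to 3.71 CPM on 0.2 mM and 4.42 to 9.55 CPM on 2 mM over 5 genes. The part of these marker differences in the results was not tested. In bulk shoots, fewer cells of a type and less RNA per cell cannot be told apart. Plant 2 on 0.2 mM stood farthest from its group, with a standard deviation of 0.14 log2 units from the group mean, against 0.09 to 0.13 in the other 5 plants.

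Low nitrate supply gave many small differences and few large ones. Of 15108 genes tested (those at or above a CPM of 2 in each of the 24 libraries), 22 were called in limma, with a P of 0.05 or less after Benjamini-Hochberg adjustment and a fold change (FC) of 1.8 or more, which is 0.146% of the genes. Among them 14 were higher on 0.2 mM (0.0927%) and 8 were lower (0.053%). At the adjusted P alone, 937 genes passed (6.2%), 474 of them higher (3.14%) and 463 lower (3.06%). When CPM were recomputed over nuclear genes, 685 of 1012 such genes were higher, so the near-even split depends on the scaling. The 937 genes changed by a median FC of 1.26, 89 of them reached an FC of 1.5 and 8 an FC of 2. In 903 of them (96.4%) the 3 plants of one supply did not overlap with the 3 of the other, against 3972 of all genes tested (26.3%). The 937 were selected by the test on these same plants, so their larger share follows from the selection and is no further support. The median log2 FC of all genes tested was 0.01. The count at the adjusted P rested on single plants, with 116 genes left without plant 2 on 0.2 mM, 241 and 176 without plants 1 and 2 on 2 mM, and 1201 without plant 3 on 0.2 mM. The count with the FC limit was 11 without plant 1 on 2 mM and 17 to 31 without any other plant.

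**Figure D1:**
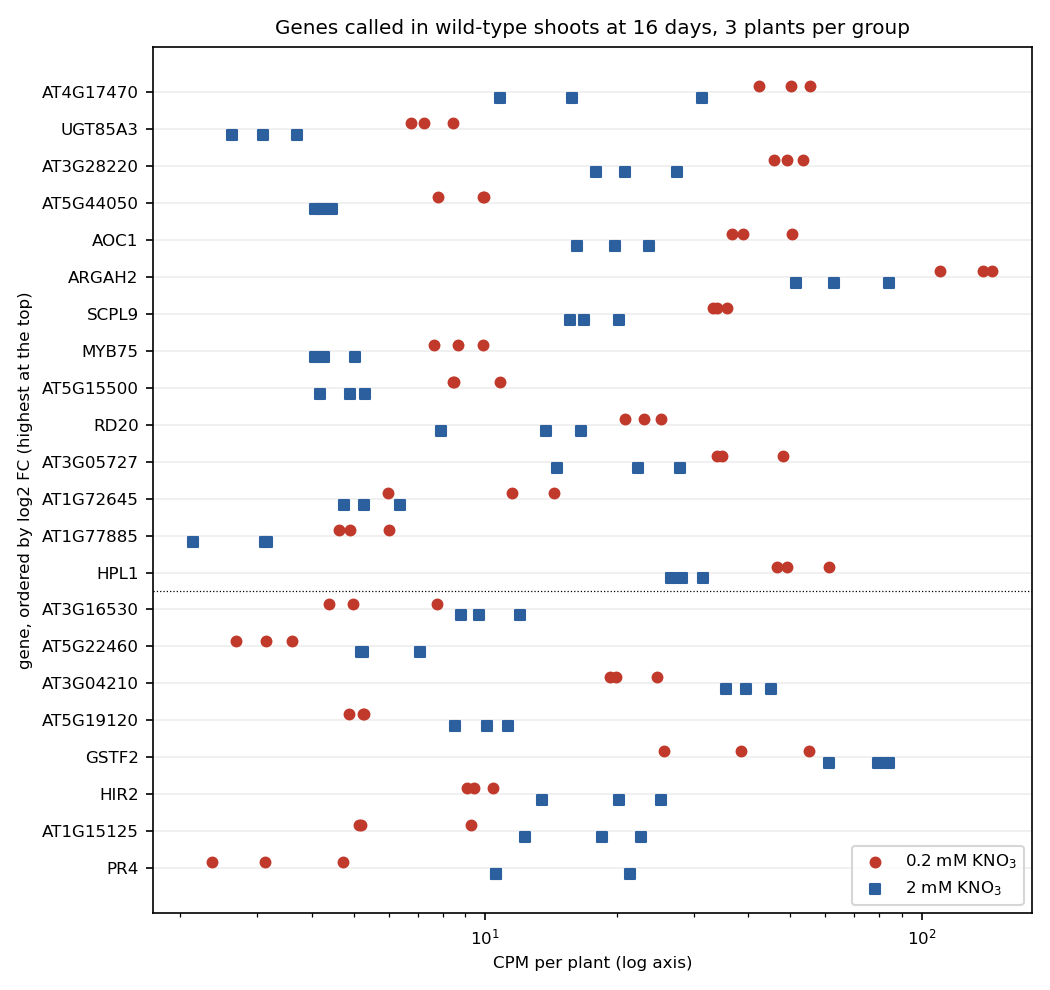
CPM per plant (log axis) of the 22 genes called at an adjusted P of at most 0.05 and an FC of at least 1.8, with 0.2 mM as red circles and 2 mM as blue squares, 3 plants each. The 14 genes above the dotted line were higher on 0.2 mM and the 8 below it were lower; the plants of both supplies overlapped only in AT1G72645.

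Of the 8 genes called lower, PR4 had the largest FC. PR4, which encodes a chitin-binding pathogenesis-related protein, measured 3.12, 4.71 and 2.36 CPM on 0.2 mM, against 10.6, 10.6 and 21.5 CPM on 2 mM. All 3 plants on low nitrate were below all 3 on normal nitrate, a 4.02-fold difference (log2 FC -2.01 ± 0.23 SE, adjusted P 2.7e-05), the largest of all genes tested. AT1G15125, of the S-adenosylmethionine-dependent methyltransferase family, measured 5.18, 9.27 and 5.14 CPM on 0.2 mM, against 12.3, 18.5 and 22.7 CPM on 2 mM (log2 FC -1.45 ± 0.29, adjusted P 0.00631). Its highest plant on low nitrate stayed below the lowest on normal nitrate. GSTF2, a glutathione transferase of stressed tissue, measured 38.5, 55.1 and 25.7 CPM on 0.2 mM, against 79.4, 61.3 and 84.1 CPM on 2 mM. HIR2, of the hypersensitive-induced-reaction membrane proteins, measured 9.09, 10.4 and 9.43 CPM on 0.2 mM, against 20.3, 13.5 and 25.3 CPM on 2 mM. The groups did not overlap in either gene, and their log2 FC were -0.97 and -0.98. AT3G04210, a disease-resistance protein of the TIR-NBS class, measured 24.7, 19.9 and 19.3 CPM on 0.2 mM, against 45.1, 39.6 and 35.7 CPM on 2 mM (log2 FC -0.91 ± 0.18, adjusted P 0.00528). AT3G16530, a legume lectin family gene, had a log2 FC of -0.85. The remaining genes called lower were AT5G19120, of the aspartyl protease family (5.23, 5.27 and 4.88 CPM on 0.2 mM, against 10.1, 8.5 and 11.3 CPM on 2 mM), and AT5G22460, of the alpha/beta-hydrolase superfamily (log2 FC -0.87). GSTF2, HIR2 and AT3G16530 overlap genes annotated on the opposite strand, and whether reads were counted by strand is not given in the sources used here.

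The 14 genes called higher on low nitrate included AOC1 and HPL1, enzymes of oxylipin synthesis, the pathway from fatty acids to jasmonate and leaf volatiles. AOC1, an allene oxide cyclase of jasmonate synthesis, measured 36.8, 50.4 and 39 CPM on 0.2 mM, against 16.2, 19.8 and 23.7 CPM on 2 mM, so that every plant on low nitrate was above every plant on normal nitrate (2.12-fold, log2 FC 1.08 ± 0.21, adjusted P 0.00504). HPL1, a hydroperoxide lyase that takes the same hydroperoxides towards volatile aldehydes, measured 46.7, 61.2 and 49.2 CPM on 0.2 mM, against 28.3, 26.7 and 31.6 CPM on 2 mM (log2 FC 0.85 ± 0.18, adjusted P 0.00821). ARGAH2, an arginase that releases nitrogen from arginine and is induced by jasmonate, measured 138, 145 and 110 CPM on 0.2 mM, against 63.0, 51.5 and 84.1 CPM on 2 mM (log2 FC 1.00 ± 0.23, adjusted P 0.0142). In both genes the groups did not overlap. MYB75 (PAP1), which activates anthocyanin synthesis, measured 9.89, 8.64 and 7.61 CPM on 0.2 mM, against 4.08, 5.03 and 4.26 CPM on 2 mM (log2 FC 0.95 ± 0.24, adjusted P 0.0205). The remaining called genes were of other kinds. UGT85A3, a UDP-glucosyltransferase, measured 6.75, 8.42 and 7.24 CPM on 0.2 mM, against 2.62, 3.1 and 3.71 CPM on 2 mM, with the smallest adjusted P of the genes called higher (5.3e-05, log2 FC 1.23 ± 0.15). AT3G28220, a TRAF-like family gene, measured 45.9, 49.2 and 53.6 CPM on 0.2 mM, against 20.9, 17.9 and 27.5 CPM on 2 mM (log2 FC 1.18 ± 0.16, adjusted P 0.000151). SCPL9, a serine carboxypeptidase-like protein, measured 33.2, 34.0 and 35.8 CPM on 0.2 mM, against 15.6, 16.8 and 20.2 CPM on 2 mM. AT5G44050, a MATE efflux transporter, measured 9.94, 9.89 and 7.81 CPM on 0.2 mM, against 4.23, 4.45 and 4.08 CPM on 2 mM. Plants of the 2 supplies were well apart in these 4 genes. RD20, a caleosin known from drought and abscisic acid responses, measured 25.3, 23.1 and 20.9 CPM on 0.2 mM, against 13.8, 7.93 and 16.6 CPM on 2 mM (log2 FC 0.91 ± 0.24). AT4G17470, of the alpha/beta-hydrolase superfamily, had the largest log2 FC of the genes called higher (1.48 ± 0.42, adjusted P 0.035) with a wide spread on normal nitrate (50.1, 55.6 and 42.3 CPM on 0.2 mM, against 15.8, 10.8 and 31.3 CPM on 2 mM). AT5G15500, AT3G05727, AT1G77885 and AT1G72645 had log2 FC of 0.87 to 0.93, and the groups overlapped in AT1G72645. Without each of the 6 plants in turn and under 10 other settings, AOC1, AT1G15125, AT3G28220, AT5G44050, PR4, SCPL9 and UGT85A3 were called every time. None of the 22 changed direction, but where the groups do not overlap the loss of a plant cannot change it.

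The G-box, a sequence bound by bHLH and bZIP factors such as MYC2, and the GAATATTC element bound by NIGT1/HRS1 repressors of nitrate responses were looked for, the G-box after the values had been seen, in the bases around the start of each gene (250 before it and 50 from it on, both strands, RefSeq annotation of TAIR10.1). CACGTG was found in 3 of the 14 promoters of genes called higher (21.4%) and 1 of the 8 of genes called lower (12.5%), against 1367 of 15049 promoters of tested genes (9.08%). At the adjusted P alone, the shares were 13.2% of 470 promoters of higher genes and 5.18% of 463 of lower genes. GAATATTC was found in 0 of the 14 and in 2 of the 8 (HIR2 and AT3G16530), against 141 of 15049 (0.937%), whereas at the adjusted P alone it was found in 1.91% of the promoters of higher genes and 0.648% of those of lower genes. The wider letters GNATATNC, known from phosphate-responsive promoters and containing every GAATATTC, were found in 1 of the 14 (7.14%) and in HIR2, AT3G16530 and AT5G19120 of the 8 (37.5%), against 5.93% of all. A match describes these letters only and is no evidence of binding. The stretches of 250 bases before the start are shown for 4 of the called genes with a match in them, with the matches in capitals, CACGTG in all but AT3G16530, where it is GAATATTC. They are AT3G28220 (chr3:10523931-10524180, plus strand), UGT85A3 (chr1:7902428-7902677, minus strand), AT5G19120 (chr5:6414238-6414487, plus strand) and AT3G16530 (chr3:5625520-5625769, minus strand).
AT3G28220: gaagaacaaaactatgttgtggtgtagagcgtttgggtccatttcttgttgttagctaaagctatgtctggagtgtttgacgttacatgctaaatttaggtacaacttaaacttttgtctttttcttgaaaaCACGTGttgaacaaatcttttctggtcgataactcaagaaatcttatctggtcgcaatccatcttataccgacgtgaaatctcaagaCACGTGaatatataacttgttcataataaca
UGT85A3: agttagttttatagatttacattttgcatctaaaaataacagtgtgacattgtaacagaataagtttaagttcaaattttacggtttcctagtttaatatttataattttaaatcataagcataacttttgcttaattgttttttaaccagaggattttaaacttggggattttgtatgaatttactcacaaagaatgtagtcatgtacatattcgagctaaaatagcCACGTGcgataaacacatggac
AT5G19120: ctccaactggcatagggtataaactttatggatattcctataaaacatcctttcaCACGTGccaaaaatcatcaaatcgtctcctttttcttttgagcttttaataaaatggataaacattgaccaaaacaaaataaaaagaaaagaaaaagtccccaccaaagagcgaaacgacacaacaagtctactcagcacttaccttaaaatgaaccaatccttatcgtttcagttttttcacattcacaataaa
AT3G16530: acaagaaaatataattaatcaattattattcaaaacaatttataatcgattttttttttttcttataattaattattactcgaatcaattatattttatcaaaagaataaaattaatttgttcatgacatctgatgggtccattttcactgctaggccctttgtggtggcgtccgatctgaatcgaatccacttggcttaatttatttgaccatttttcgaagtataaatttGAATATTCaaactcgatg
AT3G28220, with a pair of matches before its start, was 2.27-fold higher on 0.2 mM and UGT85A3 2.35-fold, whereas AT5G19120 and AT3G16530 were lower by 1.91-fold and 1.81-fold.

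Jasmonate genes had positive log2 FC on low nitrate, and some passed the test. The list of 12 held enzymes of jasmonate synthesis, the JAZ repressors, MYC2 and its targets, and 9 of its members passed the filter on low values. All 9 had a positive log2 FC (median 0.49, against 0.01 for all genes tested), and 4 rose at the adjusted P, against 3.14% of all genes. Like all lists here, this one was chosen with earlier results of these data known, so the share is no independent support. Of the 4, ARGAH2 is also among the called genes described above. In synthesis, AOS, the allene oxide synthase, measured 346, 327 and 320 CPM on 0.2 mM, against 236, 248 and 270 CPM on 2 mM (log2 FC 0.40 ± 0.11, adjusted P 0.0325). AOC2, a close relative of AOC1, measured 393, 463 and 431 CPM on 0.2 mM, against 293, 265 and 364 CPM on 2 mM (log2 FC 0.49 ± 0.14, adjusted P 0.0332). The groups did not overlap in either gene, and 2.2% of the 50-base stretches of AOC1 and 0.0832% of those of AOC2 occur elsewhere in the genome. LOX2, a lipoxygenase at the head of the pathway, measured 2450, 2300 and 2590 CPM on 0.2 mM, against 1800, 1640 and 2060 CPM on 2 mM, without overlap, but did not pass the test (log2 FC 0.42 ± 0.17, adjusted P 0.127). OPR3, the reductase of the peroxisomal steps, had a log2 FC of 0.30 (adjusted P 0.0984). In signalling, MYC2, the bHLH factor at the centre of jasmonate responses, measured 132, 137 and 133 CPM on 0.2 mM, against 79.1, 89.7 and 102 CPM on 2 mM (1.49-fold, log2 FC 0.58 ± 0.17, adjusted P 0.0385). Its values were nearly alike among the plants on low nitrate. MYC2 overlaps a gene annotated on the opposite strand. JAZ1, a repressor of MYC2, did not pass (log2 FC 0.47 ± 0.24), and neither did the wound-induced storage proteins VSP1 (0.96 ± 0.53) and VSP2 (0.96 ± 0.33, adjusted P 0.0811). VSP2 measured 439, 441 and 419 CPM on 0.2 mM, against 188, 186 and 314 CPM on 2 mM. Below the filter, PDF1.2, a defensin of combined jasmonate and ethylene signalling, measured 0, 0 and 0.0568 CPM on 0.2 mM, against 0.0881, 0.862 and 1.04 CPM on 2 mM (exact permutation P 0.1, two-sided, the smallest that 3 plants against 3 allow). The count of 4 was 0 without plant 2 on 0.2 mM, 0 without plant 1 or plant 2 on 2 mM, 2 without plant 1 or plant 3 on 0.2 mM and 5 without plant 3 on 2 mM, while the median stayed between 0.39 and 0.67. It was 1 (ARGAH2) without a filter on low values and in limma without trend, where AOS, AOC2 and MYC2 no longer passed, and 8 with only the 6 libraries of the comparison.

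Salicylic acid genes lay on the other side. Salicylic acid is the hormone of resistance to biotrophic pathogens and in Arabidopsis acts in mutual antagonism with jasmonate. Of 17 listed genes 11 passed the filter, and all 11 had a negative log2 FC (median -0.53). At the adjusted P 5 fell, against 3.06% of all genes. This list too was chosen with earlier results of these data known. Of the regulators, SARD1, a factor that switches on salicylic acid synthesis, measured 4.02, 4.40 and 3.49 CPM on 0.2 mM, against 7.14, 6.26 and 7.68 CPM on 2 mM (1.75-fold, log2 FC -0.81 ± 0.17, adjusted P 0.00848). The groups did not overlap. It shares part of its length with a gene on the opposite strand. EDS1, a lipase-like protein upstream of salicylic acid, measured 26.7, 20.3 and 21.9 CPM on 0.2 mM, against 29.2, 28.8 and 32.2 CPM on 2 mM (log2 FC -0.40 ± 0.10, adjusted P 0.0253). PAD4, its partner, did not pass (log2 FC -0.52 ± 0.18, adjusted P 0.0793). WRKY54, a transcription factor of the response, measured 18.4, 18.8 and 16.2 CPM on 0.2 mM, against 28.6, 28.0 and 26.0 CPM on 2 mM (log2 FC -0.63 ± 0.17, adjusted P 0.0275), whereas WRKY70, its close relative, did not pass (log2 FC -0.40 ± 0.15, adjusted P 0.104). Of the outputs, LURP1 measured 174, 188 and 135 CPM on 0.2 mM, against 305, 286 and 282 CPM on 2 mM (1.77-fold, log2 FC -0.83 ± 0.22, adjusted P 0.0276). PR5, a thaumatin-like protein, measured 11.4, 11.9 and 8.97 CPM on 0.2 mM, against 15.3, 16.7 and 16.3 CPM on 2 mM (log2 FC -0.59 ± 0.16, adjusted P 0.028). In both the lowest plant on normal nitrate was above the highest on low nitrate. ICS1, the enzyme of salicylic acid synthesis, and EDS5, its exporter, both had log2 FC of -0.03. PR1, the classical marker, was below the filter at 0.103, 0 and 0 CPM on 0.2 mM, against 0.375, 0 and 2.19 CPM on 2 mM. The count of 5 was 5 without plant 1 on 0.2 mM, 1 without plant 2 or plant 3 on 0.2 mM, and 1, 2 and 3 without plants 1, 2 and 3 on 2 mM, and the median stayed between -0.66 and -0.44. It was 1 without a filter on low values, where EDS1, WRKY54, PR5 and LURP1 no longer passed, 2 in limma without trend, where WRKY54, PR5 and LURP1 did not, and 7 with only the 6 libraries.

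**Figure D2:**
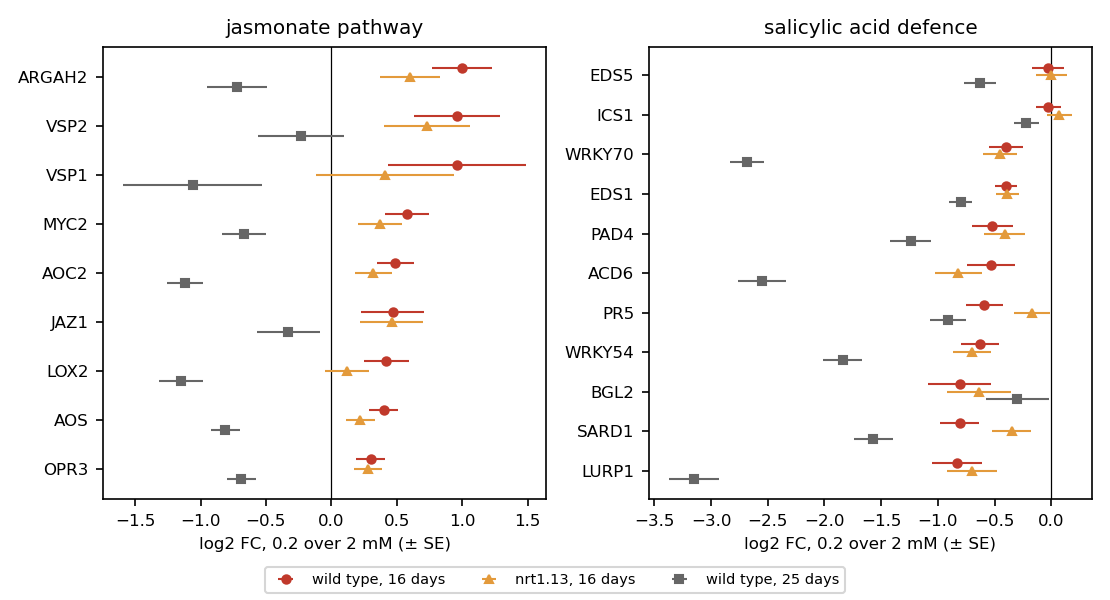
Log2 FC of 0.2 over 2 mM KNO3 (± SE) for the tested members of the jasmonate list (left) and the salicylic acid list (right) in wild type at 16 days (red circles), nrt1.13 at 16 days (orange triangles) and wild type at 25 days (grey squares). All red circles lie above 0 on the left and below 0 on the right; the grey squares lie below 0 in both panels.

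Among genes of nitrate uptake and transport no difference was detected. Of 18 listed genes 11 passed the filter, and 0 passed the test in limma and in edgeR (1 at an unadjusted P of 0.05, median log2 FC -0.06). NRT1.3 and NRT1.4 are not among the 18, because their names did not match the reference. NRT1.1, the dual-affinity transporter and sensor, measured 73.5, 63.7 and 58.6 CPM on 0.2 mM, against 60.4, 56.0 and 64.2 CPM on 2 mM (log2 FC 0.11 ± 0.10). NRT1.7, which loads nitrate from old leaves into the phloem, measured 75.7, 68.5 and 70.6 CPM on 0.2 mM, against 67.4, 63.6 and 65.5 CPM on 2 mM (log2 FC 0.13 ± 0.09, adjusted P 0.403). CLCA, the exchanger that stores nitrate in the vacuole, measured 45.7, 45.2 and 45.6 CPM on 0.2 mM, against 51.6, 47.9 and 51.7 CPM on 2 mM (log2 FC -0.15 ± 0.06, adjusted P 0.162). In NRT1.7 and CLCA the groups did not overlap, although the differences were small. NRT1.13, the gene disrupted in the mutant, measured 10.2, 8.74 and 7.07 CPM on 0.2 mM, against 9.23, 9.51 and 8.4 CPM on 2 mM (log2 FC -0.07 ± 0.19). The high-affinity transporters known mostly from roots were below the filter. NRT2.1 measured 0.309, 0.686 and 0.795 CPM on 0.2 mM, against 0.397, 0.632 and 1.1 CPM on 2 mM, and NRT2.2 was at 0 in all 6 plants. NRT2.5, which nitrogen starvation induces, measured 0.154, 0.187 and 0.0852 CPM on 0.2 mM, against 0.0441, 0.0862 and 0.575 CPM on 2 mM (exact permutation P 0.9).

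The enzymes of nitrate reduction and their helpers gave 0 of 10 at the adjusted P in limma and in edgeR (2 at an unadjusted P of 0.05, median log2 FC -0.05). The nitrate reductase genes NIA1 and NIA2 had log2 FC of -0.26 ± 0.11 (adjusted P 0.15) and 0.17 ± 0.08 (adjusted P 0.177). NIR1, nitrite reductase, measured 301, 250 and 302 CPM on 0.2 mM, against 299, 327 and 267 CPM on 2 mM (log2 FC -0.07 ± 0.10). Without plant 3 on 2 mM, 1 member of this list was lower. Of 13 tested genes of ammonium assimilation and amide synthesis, 3 fell (median -0.09), against 3.06% of all genes. ASN2, an asparagine synthetase, measured 84.3, 65.1 and 81.1 CPM on 0.2 mM, against 101, 111 and 89.7 CPM on 2 mM (log2 FC -0.39 ± 0.09, adjusted P 0.0109). GDH1 and GDH2, glutamate dehydrogenases, had log2 FC of -0.29 and -0.26 with adjusted P of 0.0491 and 0.0414. The plants overlapped in GDH2 and not in GDH1, which has a neighbour on the opposite strand. AMT1.1, an ammonium transporter, measured 204, 200 and 183 CPM on 0.2 mM, against 254, 244 and 234 CPM on 2 mM, and did not pass (log2 FC -0.32 ± 0.11, adjusted P 0.0694). GLN2, the plastid glutamine synthetase, had a log2 FC of -0.09. ASN1, the asparagine synthetase of dark and sugar-starved leaves, was below the filter at 0.283, 0.312 and 0.170 CPM on 0.2 mM, against 0.0881, 0.0575 and 0.115 CPM on 2 mM. The count of 3 became 2, 0 and 2 without plants 1, 2 and 3 on 0.2 mM and 1, 0 and 1 without plants 1, 2 and 3 on 2 mM. It was 1 with CPM over nuclear genes and without a filter on low values.

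Regulators of the nitrate response moved in both directions. Of 15 tested, 3 rose and 2 fell (median 0.07), against 3.14% and 3.06% of all genes. BT2, a BTB-TAZ scaffold protein induced by nitrate, measured 27.8, 31.5 and 33.4 CPM on 0.2 mM, against 54.8, 55.3 and 50.3 CPM on 2 mM (1.73-fold, log2 FC -0.79 ± 0.10, adjusted P 5.2e-05). The highest plant on low nitrate lay far below the lowest on normal nitrate. LBD39, a nitrate-induced repressor of anthocyanin synthesis, measured 9.22, 8.11 and 8.43 CPM on 0.2 mM, against 10.8, 12.6 and 10.4 CPM on 2 mM (log2 FC -0.38 ± 0.10, adjusted P 0.0289). Its relatives LBD38 (log2 FC -0.32, adjusted P 0.0527) and LBD37 (-0.21, adjusted P 0.112) did not pass. Of the genes that rose, BT1, the closest relative of BT2, measured 21.7, 15.5 and 20.8 CPM on 0.2 mM, against 14.1, 14.6 and 13.5 CPM on 2 mM (log2 FC 0.44 ± 0.13, adjusted P 0.0429). GNL, a GATA factor that promotes greening, measured 9.14, 12 and 10.6 CPM on 0.2 mM, against 7.29, 7.84 and 8.28 CPM on 2 mM (log2 FC 0.43 ± 0.12, adjusted P 0.0332). CIPK23, the kinase that phosphorylates NRT1.1 at low nitrate, measured 18.5, 21.3 and 17.0 CPM on 0.2 mM, against 13.7, 15.0 and 15.4 CPM on 2 mM (log2 FC 0.36 ± 0.08, adjusted P 0.0119). In all 5 the groups did not overlap. NLP7 and NLP6, the factors that bind nitrate-responsive promoters, had log2 FC of 0.09 and 0.18 (adjusted P 0.333 and 0.307). BT2 passed the test without each plant in turn. The counts of 3 higher and 2 lower became 2 and 2, 1 and 1, and 1 and 1 without plants 1, 2 and 3 on 0.2 mM. Without plants 1, 2 and 3 on 2 mM they became 0 and 1, 1 and 1, and 2 and 3. They were 1 and 1 with only the 6 libraries, where LBD39, GNL and CIPK23 no longer passed, and 1 and 2 without a filter on low values. HRS1, a NIGT1-type repressor, was below the filter at 0 CPM in all plants on 0.2 mM and at most 0.0575 CPM on 2 mM. HHO1, HHO2 and HHO3, also meant for this list, were left out because their names did not match the reference. Of 11 CC-type glutaredoxins, a group that nitrate induces, only 1 could be matched by name and it was not tested. Cytokinin genes, which carry nitrogen status between root and shoot, gave 0 of 8 in limma and in edgeR (1 at an unadjusted P of 0.05, median log2 FC -0.07).

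**Figure D3:**
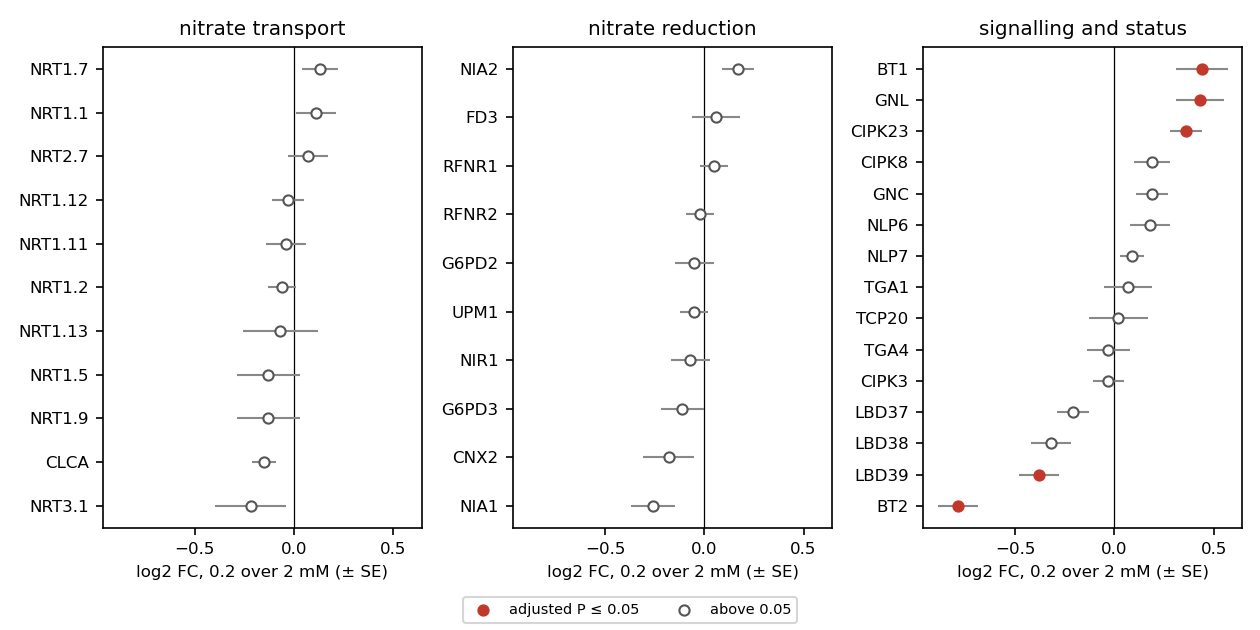
Log2 FC of 0.2 over 2 mM KNO3 (± SE) in wild type at 16 days for tested genes of nitrate transport, nitrate reduction and the signalling and status regulators, with filled symbols at an adjusted P of at most 0.05. Filled symbols occur only among the regulators, where BT2 and LBD39 lie below 0 and BT1, GNL and CIPK23 above it.

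Single genes of light harvesting and the clock passed the test. ELF4, a component of the evening complex of the circadian clock, measured 173, 184 and 154 CPM on 0.2 mM, against 97.2, 108 and 105 CPM on 2 mM (1.64-fold, log2 FC 0.72 ± 0.07, adjusted P 2e-06) and passed without each plant in turn. The other 6 tested clock genes did not pass. LUX and ELF3, the partners of ELF4, had log2 FC of -0.02 and 0.07, and GI and TOC1, other evening genes, -0.15 and 0.12. The morning genes CCA1 and LHY were below the filter in all 6 plants, CCA1 at 0.412, 0.406 and 0.625 CPM on 0.2 mM, against 0.485, 0.690 and 0.633 CPM on 2 mM. The hour of harvest is not given in the sources used here, and its part in the difference was not tested. LHCB1.1, a chlorophyll a/b-binding protein of photosystem II, measured 453, 351 and 380 CPM on 0.2 mM, against 693, 650 and 597 CPM on 2 mM (log2 FC -0.72 ± 0.10, adjusted P 0.000167). All plants on low nitrate were lower, but 20.5% of the 50-base stretches of this gene occur elsewhere. Only uniquely matching reads were kept, so reads from the shared stretches can be lost. LHCB3 measured 1290, 1070 and 1140 CPM on 0.2 mM, against 1690, 1430 and 1400 CPM on 2 mM (log2 FC -0.37 ± 0.10, adjusted P 0.028) and has a neighbour on the opposite strand. They were the 2 that fell among 19 tested genes of light harvesting and the Rubisco small subunit (median -0.09), against 3.06% of all genes. RBCS1A, the most abundant, measured 20600, 21100 and 21300 CPM on 0.2 mM, against 21900, 21600 and 21800 CPM on 2 mM, and did not pass. LHCB3 no longer passed without plant 2 or plant 3 on 0.2 mM or without plant 1 or plant 2 on 2 mM, which left 1 of the 19. It also failed without a filter on low values and in limma without trend.

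Anthocyanin and aliphatic glucosinolate genes had mostly positive log2 FC, with few past the test. Of 17 tested anthocyanin genes 16 had a positive log2 FC (median 0.30), and MYB75 was the 1 that rose, against 3.14% of all genes. It no longer passed without plant 1 or plant 2 on 0.2 mM or without plant 1 or plant 2 on 2 mM. DFR, a late enzyme of the pathway, measured 27.1, 24.8 and 19.9 CPM on 0.2 mM, against 13.4, 14.5 and 21.4 CPM on 2 mM (log2 FC 0.56 ± 0.25, adjusted P 0.181), with overlap. CHS, chalcone synthase at the entry, had a log2 FC of 0.22 (adjusted P 0.493). MYB90 (PAP2), a relative of MYB75, was below the filter at 1.54, 1.37 and 0.852 CPM on 0.2 mM, against 0.308, 0.690 and 0.259 CPM on 2 mM, without overlap (exact permutation P 0.1). Of 13 tested genes of aliphatic glucosinolates, the sulfur- and nitrogen-containing defence compounds made from methionine, 12 had a positive log2 FC (median 0.22) and 2 rose, against 3.14% of all genes. MYB29, a regulator of the pathway, measured 54.3, 65.8 and 55.9 CPM on 0.2 mM, against 42.1, 45.7 and 42.0 CPM on 2 mM (log2 FC 0.43 ± 0.09, adjusted P 0.00615). BCAT4, the aminotransferase of the first step, measured 396, 396 and 332 CPM on 0.2 mM, against 256, 279 and 301 CPM on 2 mM (log2 FC 0.43 ± 0.10, adjusted P 0.0171), and overlaps a gene on the opposite strand. In both the groups did not overlap. The count of 2 became 1, 0 and 2 without plants 1, 2 and 3 on 0.2 mM and 1, 1 and 2 without plants 1, 2 and 3 on 2 mM.

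Flowering-time genes were compared because nitrate supply alters flowering. Of 17 tested genes 3 rose (median 0.07), against 3.14% of all genes. The 3 encode AP2-type repressors of flowering that are targets of miR172. SNZ measured 43.1, 52.8 and 46.4 CPM on 0.2 mM, against 34.9, 38.5 and 40.5 CPM on 2 mM (1.25-fold, log2 FC 0.32 ± 0.08, adjusted P 0.0171). TOE2 measured 39.7, 43.4 and 44.7 CPM on 0.2 mM, against 32.0, 33.9 and 36.5 CPM on 2 mM (log2 FC 0.32 ± 0.09, adjusted P 0.0289). TOE1 measured 79.1, 89.6 and 78.0 CPM on 0.2 mM, against 64.7, 71.0 and 70.3 CPM on 2 mM (log2 FC 0.26 ± 0.07, adjusted P 0.0247). Every plant on low nitrate was above every plant on normal nitrate in the 3 genes. SMZ, a further member of the family, passed only the wider filter on low values (mean CPM of at least 2) and measured 13.5, 12.7 and 14.3 CPM on 0.2 mM, against 6.30, 8.33 and 9.26 CPM on 2 mM (1.7-fold, log2 FC 0.77 ± 0.21, adjusted P 0.0324). It overlaps a gene on the opposite strand, and its call was lost in limma without trend and in 5 of 6 cases when a plant was dropped (largest adjusted P 0.158). SOC1, a floral activator, measured 18.3, 16.4 and 16.2 CPM on 0.2 mM, against 23.4, 20.3 and 19.8 CPM on 2 mM, without overlap, and did not pass (log2 FC -0.32 ± 0.10, adjusted P 0.064). FLC, a repressor of SOC1, measured 6.33, 14.4 and 8.83 CPM on 0.2 mM, against 7.78, 7.81 and 9.78 CPM on 2 mM (log2 FC 0.14 ± 0.21). Below the filters, LFY, the floral meristem identity factor, measured 0.0772, 0.250 and 0.0568 CPM on 0.2 mM, against 0.507, 0.747 and 0.460 CPM on 2 mM, without overlap (exact permutation P 0.1). FT, the mobile flowering signal, measured 3.48, 2.93 and 2.47 CPM on 0.2 mM, against 2.53, 3.07 and 3.08 CPM on 2 mM (exact permutation P 1). The count of 3 was 3, 0 and 2 without plants 1, 2 and 3 on 0.2 mM and 0, 0 and 3 without plants 1, 2 and 3 on 2 mM. It was 1 with only the 6 libraries, where SNZ and TOE1 no longer passed, and in edgeR 1 member was also lower.

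**Figure D4:**
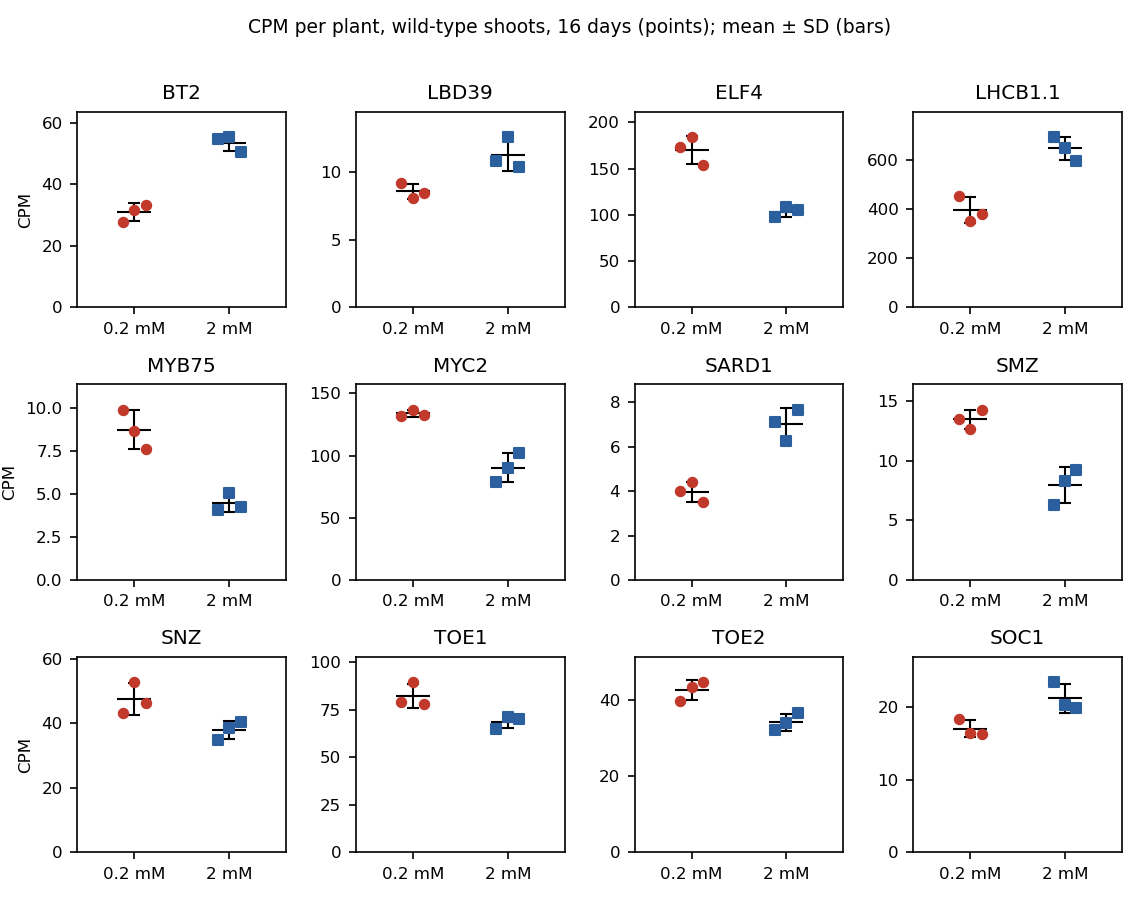
CPM per plant in wild type at 16 days for 12 genes of nitrogen status, the clock, light harvesting, pigments, hormones and flowering, with 0.2 mM at the left (red circles) and 2 mM at the right (blue squares); bars give the mean ± SD of 3 plants. The 12 are a selection, and all but SOC1 passed the test. The plants do not overlap in any of them, nor in 26.3% of all genes tested.

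In the remaining lists few genes passed. Of 6 tested genes of senescence and chlorophyll breakdown, 1 fell (3.06% of all genes did), SAG21, a late-embryogenesis protein that oxidative stress induces, at 2.57, 3.74 and 2.92 CPM on 0.2 mM, against 5.13, 4.17 and 7.71 CPM on 2 mM (log2 FC -0.83 ± 0.25, adjusted P 0.0463). Without any single plant of the 6, SAG21 no longer passed. SAG12, the marker of natural senescence, was at 0 in all 6 plants. In limma and in edgeR 0 genes passed among 9 tested genes of phosphate starvation (4 at an unadjusted P of 0.05), 14 of starch and trehalose-6-phosphate (4), 4 of touch and rapid stress (2) and 8 of the cell cycle (2). The same held for 8 genes of iron status, 4 cytosolic ribosomal proteins and 9 plastid-encoded genes in limma, none of which passed at an unadjusted P of 0.05. The 4 ribosomal genes were those above the filter of only 8 found by product name, and the 9 plastid genes those of 133. Neither group was thus surveyed as a whole. Without plant 3 on 0.2 mM, 1 phosphate gene and 1 cell cycle gene were lower and 1 senescence gene was higher. With only the 6 libraries of the comparison, 2 of the 4 touch genes were lower and 1 starch gene and 1 iron gene were higher. BAM5, a beta-amylase, measured 15.1, 13.0 and 9.40 CPM on 0.2 mM, against 5.53, 2.84 and 8.14 CPM on 2 mM, and did not pass (log2 FC 1.26 ± 0.53, adjusted P 0.143). TCH3, a calmodulin-like touch gene, measured 14.3, 13.8 and 16.9 CPM on 0.2 mM, against 24.7, 25.3 and 31.5 CPM on 2 mM (log2 FC -0.85 ± 0.26, adjusted P 0.0516). FER1, the iron-storing ferritin, measured 427, 778 and 236 CPM on 0.2 mM, against 231, 190 and 154 CPM on 2 mM (log2 FC 1.18 ± 0.73, adjusted P 0.342). Plant 2 on 0.2 mM was the highest in FER1 and also in BTS, an iron sensor (134 CPM, against 68.5 to 80.0 CPM in the other 5 plants), and in FRO3, a ferric reductase (29.2 CPM, against 10.8 to 14.7 CPM).

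With the wider filter, 16170 genes were tested and 37 were called (0.229%), 18 higher and 19 lower (927 at the adjusted P alone, 5.73%), of which 16 were outside the first filter. They included PCR1, named for cadmium resistance, at 3.84, 4.18 and 2.3 CPM on 0.2 mM, against 14.4, 7.93 and 17.7 CPM on 2 mM (3.71-fold lower, log2 FC -1.89 ± 0.34, adjusted P 0.00317). BG3, a beta-1,3-glucanase of the PR2 family, measured 0.824, 1.93 and 0.710 CPM on 0.2 mM, against 3.41, 3.1 and 2.82 CPM on 2 mM (log2 FC -1.48 ± 0.44), and was no longer called without any single plant of the 6 (largest adjusted P 0.134), nor in limma without trend. The metacaspase gene MC9 (log2 FC -1.29), the cytochrome P450 gene CYP71B22 (-1.21) and AT4G34400, of the AP2/B3-like factors (-1.14), were also lower without overlap. Of the higher genes, AT4G01390, a TRAF-like family gene, measured 1.39, 1.5 and 1.16 CPM on 0.2 mM, against 0.286, 0.402 and 0.863 CPM on 2 mM (log2 FC 1.34 ± 0.37). KIN1, a cold- and abscisic acid-induced protein, measured 7.75, 6.33 and 7.24 CPM on 0.2 mM, against 3.13, 3.22 and 4.49 CPM on 2 mM (log2 FC 0.97 ± 0.26). AT1G68110 (1.00) and AT3G46650 (0.98) were higher without overlap, and AT3G46650 lies opposite LUX. Of the 16 genes, 3 were called without each plant in turn, PCR1, AT4G34400 and AT3G46650. AT1G53903 (1.04) is uncertain, because all of its 50-base stretches occur elsewhere. The count of 37 was 22 without plant 2 on 0.2 mM, and 15 and 24 without plants 1 and 2 on 2 mM.

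The same contrast in nrt1.13 at 16 days and in wild type at 25 days rests on other plants and shares no library with it. In nrt1.13 at 16 days, 7 genes were called (0.0463%), all lower, and 427 passed the adjusted P alone (2.83%), of which 166 were lower (1.1%). All 22 genes called in wild type had the same direction in nrt1.13, where 6 passed the adjusted P, and all 22 differences were larger in wild type, which chose them. Of the 937 genes, 871 (93%) had the same direction in nrt1.13, 153 of them at the adjusted P, against 70.3% of all genes tested. The test of the difference between the genotypes passed for 0 genes in limma and in edgeR (998 at an unadjusted P of 0.05, 6.61%), and for 1 gene without plant 3 of wild type on 0.2 mM. BT2 measured 29.5 to 36.5 CPM on 0.2 mM and 51.9 to 52.6 CPM on 2 mM in nrt1.13 (log2 FC -0.72 ± 0.10, adjusted P 0.000374). ELF4 measured 140 to 154 CPM on 0.2 mM and 104 to 110 CPM on 2 mM there (log2 FC 0.45 ± 0.07, adjusted P 0.00133). Both thus differed between the supplies in nrt1.13 too. The jasmonate list had a median of 0.37 with 0 genes past the adjusted P in nrt1.13, and the salicylic acid list a median of -0.41 with 3 lower.

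At 25 days the difference between the supplies was much wider and often of the other sign. In wild type at 25 days, 370 genes were called (2.45%), 69 higher (0.457%) and 301 lower (1.99%), and 5895 passed the adjusted P alone (39%), 3039 of them lower (20.1%). At an unadjusted P of 0.05, 47.1% of the genes passed. Of the 937 genes of day 16, 274 (29.2%) had the same direction at 25 days, against 43.9% of all genes, and 422 passed the adjusted P in the opposite direction. The difference between the days itself passed for 5012 genes (33.2%, and 42.6% at an unadjusted P of 0.05), for 729 of the 937 and for 15 of the 22 called genes. Jasmonate genes turned round. Of the 9 tested, 6 were lower on 0.2 mM at 25 days (median log2 FC -0.72), and 7 differed between the days. AOC1 measured 3.71 to 6.29 CPM on 0.2 mM and 9.35 to 16.0 CPM on 2 mM at 25 days (log2 FC -1.40 ± 0.21, adjusted P 5.9e-06), a difference between the days of 2.48 ± 0.29 log2 units. ELF4 measured 40.1 to 42.1 CPM on 0.2 mM and 66.1 to 73.7 CPM on 2 mM at 25 days (log2 FC -0.76 ± 0.07). In both genes the sign at 25 days was the opposite of that at 16 days. Salicylic acid genes kept their sign, with 9 of 11 lower at 25 days (median -1.24) and 8 further down than at 16 days. LURP1 measured 35.9 to 96.0 CPM on 0.2 mM and 520 to 595 CPM on 2 mM at 25 days (log2 FC -3.15 ± 0.22). BT2, which was lower on 0.2 mM at 16 days, measured 48.4 to 57.1 CPM on 0.2 mM and 43.1 to 48.8 CPM on 2 mM at 25 days (log2 FC 0.21 ± 0.10, adjusted P 0.0981), and the days differed by -1.0 ± 0.14 log2 units. Aliphatic glucosinolate genes were lower in 9 of 13 at 25 days (median -0.63), and 10 differed between the days. Anthocyanin genes were higher in 7 of 17 (median 0.42), and 0 differed between the days in limma. The AP2-type repressors SNZ (log2 FC 0.34 ± 0.08) and SMZ (1.43 ± 0.21) were higher on 0.2 mM at 25 days as well, with no difference between the days past the test (adjusted P 0.881 and 0.0897). The largest differences between the days with the higher value at 16 days were in FAMT, CORI3, BAM5, COR413IM1 and COR15A. COR15A, a cold-regulated chloroplast protein, measured 770, 670 and 806 CPM on 0.2 mM, against 449, 461 and 412 CPM on 2 mM at 16 days (log2 FC 0.76 ± 0.14, adjusted P 0.00265). At 25 days it measured 51.8 to 83.0 CPM on 0.2 mM and 322 to 407 CPM on 2 mM (log2 FC -2.39 ± 0.14). In the other direction were GASA6, AT2G40010 of the ribosomal protein L10 family, FIB2, a fibrillarin of the nucleolus, and the plastid-encoded ATCG00490 and ATCG00280. The libraries were selected for polyadenylated RNA, and the part of this selection in the plastid values was not tested. FIB2 measured 40.3, 36.1 and 50.4 CPM on 0.2 mM, against 57.2, 76.9 and 54.4 CPM on 2 mM at 16 days (log2 FC -0.57 ± 0.12, adjusted P 0.00906), and had a log2 FC of 1.19 at 25 days.

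**Figure D5:**
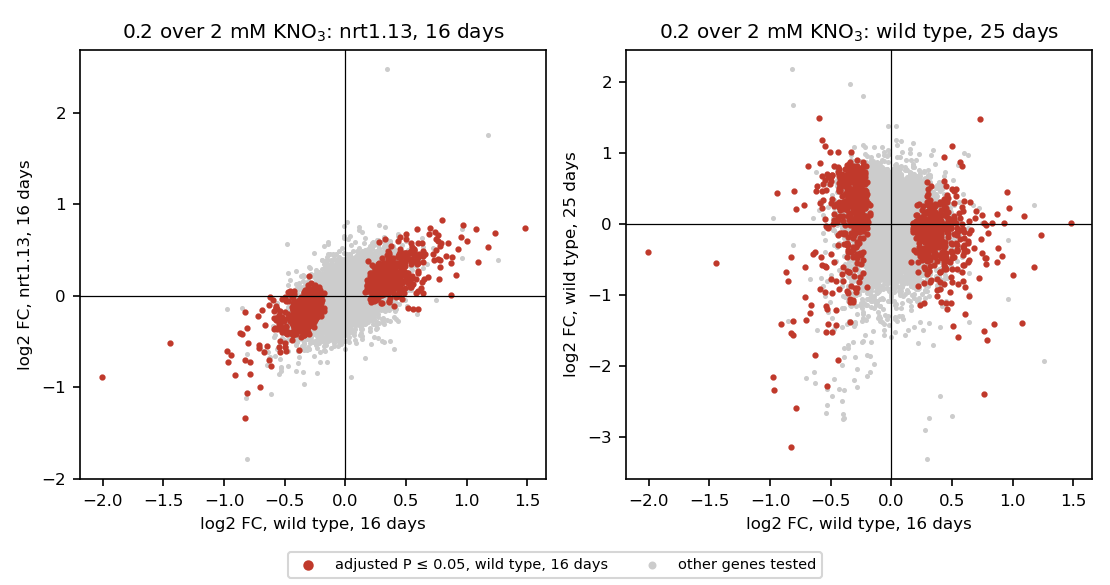
Log2 FC of 0.2 over 2 mM KNO3 in nrt1.13 at 16 days (left) and in wild type at 25 days (right) against that in wild type at 16 days, for 15108 genes; the 937 genes with an adjusted P of at most 0.05 in wild type at 16 days are red. On the left 871 of the red points share their sign, and on the right 274.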

How the data were processed

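Shoots of single plants were sequenced as stranded polyadenylated libraries (paired 75-base reads, NextSeq500), 3 plants per group, so the error covers differences between plants within a group. Whether those plants shared a hydroponic vessel is not given in the sources used here. If they did, effects of the vessel and of the supply cannot be told apart. Per the labels and the methods of the study, the authors converted reads with bcl2fastq 2.17.1.14, mapped them to TAIR10 in CLC Genomics Workbench, kept unique matches and deposited depth-scaled read counts (CPM); the strand setting and the scaling factor are not given in the sources used here. The deposited columns, recorded as a signal, summed to 971465.8 to 1016911.7 in the 6 libraries, and 100% of the values came out as whole reads (tolerance 0.01 reads) once the worth of 1 read was found.

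Group means of all 24 libraries (8 groups) were fitted on log2(CPM + 0.1) with limma 3.58.1 (R 4.3.3, empirical Bayes with trend) for genes at or above a CPM of 2 in each library, with Benjamini-Hochberg adjusted P over all genes tested. Fold changes are on the log2(CPM + 0.1) scale, which understates those of low genes. Genes were called at an adjusted P of at most 0.05 and an FC of at least 1.8; the study's own criteria use the unadjusted P, which gave 26 genes here. A second fit took genes with a mean CPM of at least 2, and genes below both filters were compared by two-sided exact permutation over 20 arrangements. Differences of the effect between genotypes and between days were interaction contrasts of the same fit. edgeR 4.0.16 on the recovered reads was an alternative, beside other pseudocounts, filters, scalings, limits and blocks and the loss of each plant. On simulated data of 15066 genes, 47 of 47 genes changed 3-fold were called, with 0 false calls. The simulated plants were drawn independently, with a spread that followed expression level alone. These counts therefore do not cover genes of wider spread or plants that deviate as a whole.

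Named genes were the 10 largest called genes in each direction without overlap, the 5 largest in each direction called only with the wider filter, members of the lists and the 5 largest of each interaction; the remaining called genes were added after their values were seen. The lists covered nitrate transport, nitrate reduction, ammonium assimilation, nitrate signalling, CC-type glutaredoxins, cytokinin, anthocyanin, light harvesting, senescence, phosphate, starch, glucosinolates, iron, salicylic acid, jasmonate, flowering, clock, touch, cell cycle, ribosomal and plastid genes. Members and lists were chosen with earlier results of these data known. Of 303 entries, 24 whose name did not match the reference were dropped. Columns not mapped to a sample numbered 0. The promoter sequence of 1 called gene is not reported here.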

Additional observations from a re-analysis of the deposited data

Results flagged for a closer look

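The effect of nitrate supply in wild type differed between 16 and 25 days for 5012 of 15108 genes. The test was the interaction in limma at an adjusted P of at most 0.05. Values follow for 48 genes that passed it. Eligible were genes called with the first filter, list members past the adjusted P at 16 days and genes with the largest interaction. Of the genes called only with the wider filter, the largest in each direction were eligible and the others were not considered. Genes called only with the wider filter were tested in the second fit and are not among the 5012. Each value given is the log2 FC of 0.2 over 2 mM KNO3 at 16 days minus that at 25 days, and a positive one means a higher ratio at 16 days. The days also differ in age and stage, and the part of either in the difference was not tested.

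In oxylipin and jasmonate genes the value was 2.48 for AOC1, 1.61 for AOC2, 1.21 for AOS, 2.26 for HPL1, 1.25 for MYC2 and 1.73 for ARGAH2. CORI3 (3.2), known as a coronatine-induced gene, and FAMT (3.61) were among the largest. In cold- and drought-responsive genes it was 3.15 for COR15A, 3.18 for COR413IM1, 2.98 for KIN1 and 1.36 for RD20, and in BAM5 it was 3.19. In defence genes that were lower on 0.2 mM at both ages it was 2.33 for LURP1, 1.21 for WRKY54, 0.76 for SARD1 and 0.4 for EDS1, so the ratio was further down at 25 days. It was also positive in BG3 (2.97), GSTF2 (1.38) and HIR2 (1.17), and negative in PR4 (-1.61).

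Regulators of nitrogen status had values of -1.0 for BT2, -0.81 for LBD39, -0.52 for GNL, 0.34 for CIPK23 and 0.69 for BT1, and GDH2 had -0.3. ELF4 had 1.47, LHCB1.1 -0.99 and BCAT4 1.06. Other genes called higher on 0.2 mM at 16 days had 1.38 for UGT85A3, 0.74 for SCPL9, 1.79 for AT3G28220, 0.97 for AT5G44050, 0.93 for AT5G15500, 1.22 for AT3G05727 and 1.41 for AT1G72645. AT5G19120, called lower, had -1.37. Of the genes called with the wider filter only, the value was 2.1 for AT1G53903, 2.0 for AT1G68110, 1.99 for AT3G46650, -2.89 for AT4G01390 and -1.04 for AT4G34400. The most negative values within the first filter were -3.01 for ATCG00490, -2.31 for ATCG00280, -2.1 for AT2G40010, -2.04 for GASA6 and -1.76 for FIB2. For the plastid-encoded ATCG00490 and ATCG00280, the part of the selection for polyadenylated RNA was not tested. No plant was tested as standing apart within its group, because groups of 3 are too small for that rule.

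The difference between the days also passed for named genes that did not pass at 16 days. It was 1.57 for LOX2, 0.99 for OPR3 and 2.02 for VSP1 of the jasmonate list, and 2.28 for WRKY70, 0.73 for PAD4 and 0.61 for EDS5 of the salicylic acid list. Of the nitrogen genes it was 0.64 for NRT1.7, -0.62 for CLCA, 0.67 for AMT1.1 and -0.54 for LBD37, and further values were 1.03 for FRO3, 0.39 for SOC1 and -0.41 for GI.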

How the results depend on the processing

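Alternatives were run for the genes called with either filter and the list members past the adjusted P (SMZ included), and none of these changed direction. Where the groups do not overlap, the loss of a plant cannot change the direction. Of the called genes, 22 became 14 with a pseudocount of 1, 37 with the mean-CPM filter, 50 without a filter on low values, 89 with an FC limit of 1.5 and 937 with no FC limit. Leaving out each plant in turn gave 11 to 31 called genes, 116 to 1201 genes at the adjusted P alone, 15 to 50 with the wider filter, 0 to 1 for the difference between the genotypes and 4148 to 5004 for the difference between the days. At the adjusted P alone, 937 became 559 without a filter, 579 with only the 6 libraries of the comparison and 584 in limma without trend. With the wider filter, 37 became 22 with a pseudocount of 1. edgeR on the recovered reads called 20 genes (19 shared with the 22) and 1016 at the adjusted P alone (923 shared with the 937). Same-numbered plants had deviations with correlations of -0.02, -0.16 and -0.14, against -0.05 to 0.17 for plants of unlike number. With 3 plants per group, these values cannot show whether the numbers pair the samples, and the main fit used no pairing. With the replicate number as a replicate block, 21 genes were called, all among the 22, and 493 passed the adjusted P alone, 476 of them shared. With the block, the counts became 1 lower for ammonium assimilation (GDH1 and GDH2 lost) and 1 higher and 1 lower for the nitrogen regulators (LBD39, GNL and BT1 lost). They became 2 higher for flowering (TOE2 lost) and 0 for senescence (SAG21 lost). PR5 no longer passed, while the salicylic acid count stayed at 5 and the jasmonate count became 5. AT1G72645 lost its call. So did BG3, MC9, AT4G01390 and AT1G68110, among other genes of the wider filter. For single genes, 694 alternative values kept their side of the threshold and 296 fell short of it. On simulated data of this comparison, 45 of 50 genes changed 2-fold were called at the FC limit, and 47 of 49 genes changed 1.5-fold passed the adjusted P alone, where 11 unchanged genes passed too. These simulated plants were drawn independently, with a spread that followed expression level alone, so genes of wider spread are not covered. With 3 plants per group and 1 fit over all 24 libraries, the error of a gene is shared among groups.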
